A study of Saccharomyces cerevisiae with 4 samples.

Results

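Septins are GTP-binding proteins that join into rods and filaments, and the 7 septin genes of budding yeast were read against peak lists for the histone deacetylases Sir2 and Hst1. SPR3 and SPR28 are the sporulation septins, and CDC3, CDC10, CDC11, CDC12 and SHS1 are the 5 vegetative ones. The members were taken by name from a table of 6002 nuclear protein-coding genes, and all 7 were found. For each gene the stretch examined was its body and the 1 kb upstream of its annotated start. A gene was called where the summit of a peak, its highest point, lay in that stretch.

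In growing cells the vegetative septins form the collar at the bud neck, where they act as a scaffold and a diffusion barrier. In meiosis SPR3 and SPR28 are switched on in the middle phase of sporulation, and their products line the prospore membranes that enclose the new nuclei. Many genes of that phase are kept off during vegetative growth by the DNA-binding repressor Sum1, with which Hst1 works, and are turned on by the activator Ndt80. Sir2, a close relative of Hst1, is best known from silent chromatin at telomeres, the silent mating loci and the ribosomal DNA.

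The series used chromatin immunoprecipitation (IP) followed by sequencing, on cells in early log phase at 30 °C in rich glucose medium, so all groups were growing vegetatively. The groups were an IP from a strain with HA-tagged Sir2, an IP from a strain with HA-tagged Hst1, and a mock IP with the same anti-HA antibody from the parental strain. Crosslinking was by 10 mM dimethyl adipimidate followed by 1% formaldehyde in all of them. A genomic input of the parental strain was not analysed here. Mating type and ploidy are not given in the labels. Each IP had 1 peak list, so no value below has a replicate error and no difference between IPs was tested. The lists held 159 peaks for Sir2, 692 for Hst1 and 3 for the mock IP. They hold no read counts, so the depth is unknown, and a gene with no peak is only one where the authors' caller listed none. Coordinates are sacCer3, and the fold enrichment quoted for each peak is the authors' ratio at its summit, used only within its own list.

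Hst1 peaks lay at both sporulation septins, and among the vegetative septins at CDC3. Hst1 called 2 of 2 sporulation septins and 1 of 5 vegetative septins, against 14.4% of all protein-coding genes (864 of 6002). Over all 7 septin genes that is 3 genes, or 42.9%. Sir2 called 0 of 7, against 1.83% of all genes, and the mock IP called 0 of 7, against 0.0666%. With shares this low over all genes, a count of 0 among 7 septin genes does not set them apart from other genes in either list.

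The classes also differed in how much of their sequence lay under peaks. Hst1 peaks covered 1718 of 4811 bp (35.7%) at the sporulation septins and 217 of 11660 bp (1.86%) at the vegetative ones. The share of bp over all genes is not given here, so 1.86% cannot be called low. Any part of an Hst1 peak lay at 2 of 2 sporulation septins, 1 of 5 vegetative septins and 16.8% of all genes (1011 of 6002). Of the sporulation total, 358 bp came from a peak at the end of SPR28 that also lies upstream of RAD9. Sir2 and mock IP peaks covered 0 bp at every one of the 7 genes. The stretches examined were alike in length, from 2272 to 2539 bp at the sporulation septins and from 1969 to 2656 bp at the vegetative ones, with a median of 2200 bp over all genes. Among the 1781 genes with stretches as long as these, Hst1 called 16.1%. Because the 7 genes are not replicates and were chosen with earlier results of these data known, no p is given for the difference between the classes.

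**Figure D1:**
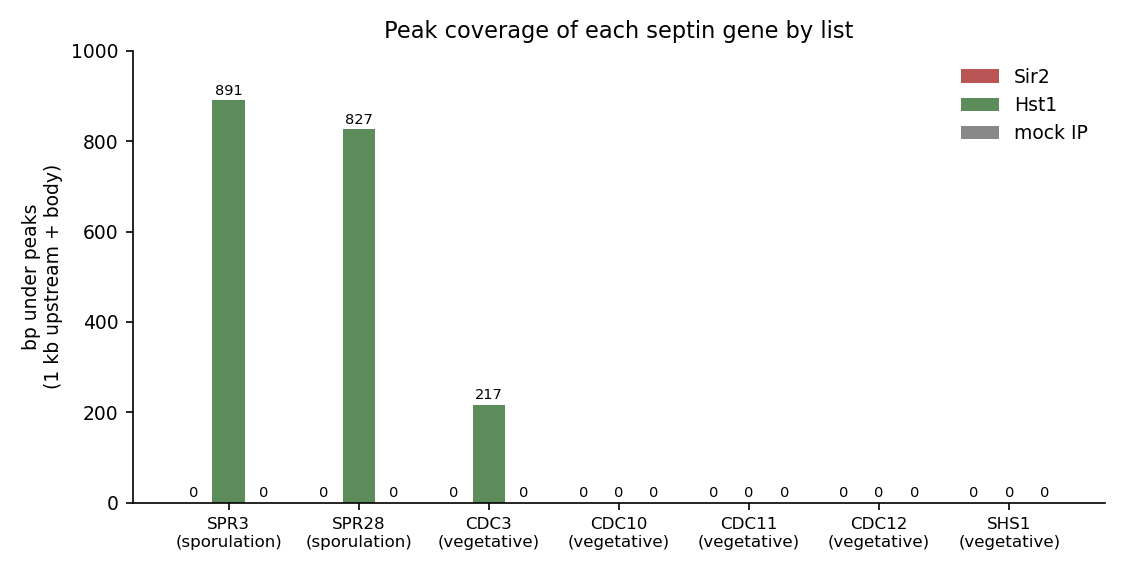
Bars give the bp under Sir2, Hst1 and mock IP peaks in the 1 kb upstream plus the body of each septin gene, with 1 list per IP and no error. Hst1 covers 891 bp at SPR3, 827 bp at SPR28 and 217 bp at CDC3, and every other bar is 0.

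SPR3 (YGR059W) lies on chromosome VII from 607563 to 609101 on the forward strand. Its Hst1 peak spanned 606990 to 607880, where the fold was 4.90 and the −log10 q was 69.7. The summit at 607361 lay 202 bp upstream of the start, in the 419 bp between SPR3 and PEF1, which encodes a calcium-binding protein and runs in the same direction. This was the strongest of the septin peaks: 9.54% of the Hst1 list had a higher fold, and it ranked 67 of 692. With 891 bp it was also longer than most, as 10.8% of the list was longer. Of its sequence 573 bp were upstream and 318 bp inside the gene, so the peak ran across the annotated start.

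SPR3 was also followed by a pair of weaker Hst1 peaks outside the stretch examined. The first (609295 to 609600, fold 1.99) had its summit 354 bp past the end of SPR3 and 129 bp upstream of SNR48, a small nucleolar RNA gene. The second (609855 to 610301, fold 2.61) had its summit 993 bp past the end and 470 bp upstream of ERG25, which encodes an ergosterol synthesis enzyme. Neither was counted for SPR3. The nearest Sir2 summit was 36.8 kb from SPR3, and the mock IP had no peak on chromosome VII.

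SPR28 (YDR218C) lies on chromosome IV from 903781 to 905052 on the reverse strand, and it had an Hst1 peak at each end. Having 2 or more Hst1 summits was rare, found at 0.683% of all genes (41 of 6002). The peak at the start spanned 904847 to 905315, where the fold was 3.41 and the −log10 q was 34.3. Its summit at 905127 lay 75 bp upstream of the start, in the 402 bp between SPR28 and MFB1, a gene of the same direction that encodes a mitochondria-associated F-box protein. It ranked 145 of 692, with 20.8% of the list higher in fold. Like the SPR3 peak it ran across the start, with 263 bp upstream and 206 bp inside the gene.

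The other SPR28 peak (903594 to 904138, fold 2.70, −log10 q 17.0) ranked 216 in the Hst1 list and was the weaker of the pair. Its summit at 903831 was inside SPR28, 50 bp before the end of the gene, and 358 of its 545 bp were in the body. The same summit lay 351 bp upstream of RAD9, which encodes a DNA damage checkpoint adaptor and follows SPR28 on the same strand. The summit was nearer to the start of RAD9 than to that of SPR28, so this peak cannot be given to SPR28 alone. The summits were 1296 bp apart, with 708 bp of the gene between the peaks not covered. The nearest Sir2 summit was 21.5 kb from SPR28 and the nearest mock IP summit, on the same chromosome, 442 kb.

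**Figure D2:**
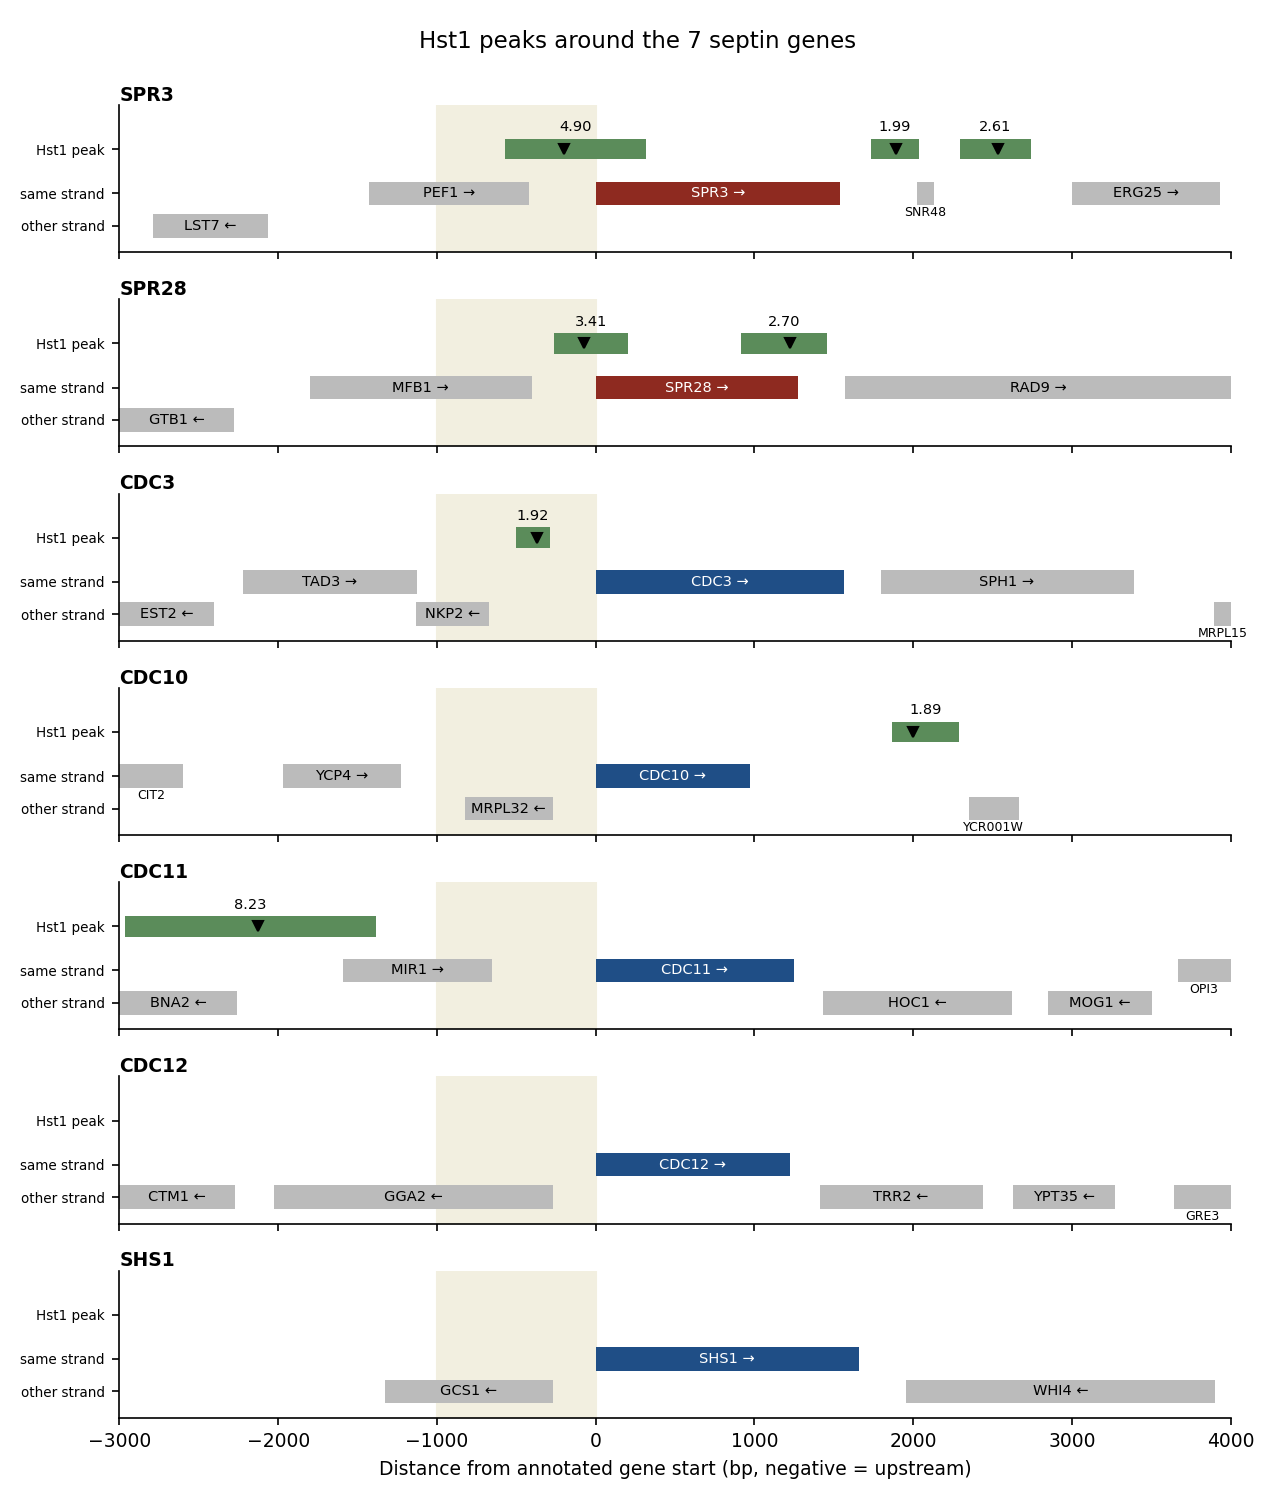
Each row shows 1 septin gene drawn from its annotated start (0 bp, transcribed to the right) with Hst1 peaks (green, fold above, summit as a triangle), neighbouring genes (grey) and the 1 kb upstream shaded; red genes are sporulation septins and blue genes vegetative. Sir2 and the mock IP had no peak in the stretches shown, and Hst1 peaks cross the start of SPR3 and SPR28, lie upstream of the start of CDC3, and lie outside the stretches examined at CDC10 and CDC11.

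CDC3 (YLR314C), which encodes a core subunit of the septin rod, was the vegetative septin with a call. It lies on chromosome XII from 762575 to 764137 on the reverse strand. Its Hst1 peak spanned 764426 to 764642, where the fold was 1.92 and the −log10 q was 6.51. It ranked 493 of 692, with 71.1% of the list higher in fold, 77.6% higher in −log10 q and 92.3% longer than its 217 bp. The peak lay wholly upstream, from 289 to 505 bp before the start, and did not reach the gene as those of SPR3 and SPR28 did. Its summit at 764506 was 369 bp upstream of CDC3 and 302 bp upstream of NKP2, a kinetochore gene that points away from CDC3 across the same 670 bp. A shared upstream stretch does not tell which of the genes such a peak belongs to.

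The calls of SPR3 and SPR28 held where that of CDC3 was lost, in settings that all reuse the same Hst1 list. With 250 bp upstream in place of 1 kb, Hst1 called both sporulation septins and 0 of 5 vegetative ones, against 4.3% of all genes. The same counts came from peaks whose −log10 q was 10 or more (9.05% of all genes) and from the strongest 50% of the list by fold (7.56%). Under a pair of settings added once the data had been seen, they also came from the 159 strongest Hst1 peaks, as many as Sir2 had (3.47%), and from giving each summit to the nearest protein-coding start alone (10.7%). With these shares over all genes, 0 of 5 does not set the vegetative septins apart from other genes. For CDC3, the nearest Sir2 summit was 59.3 kb away.

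**Figure D3:**
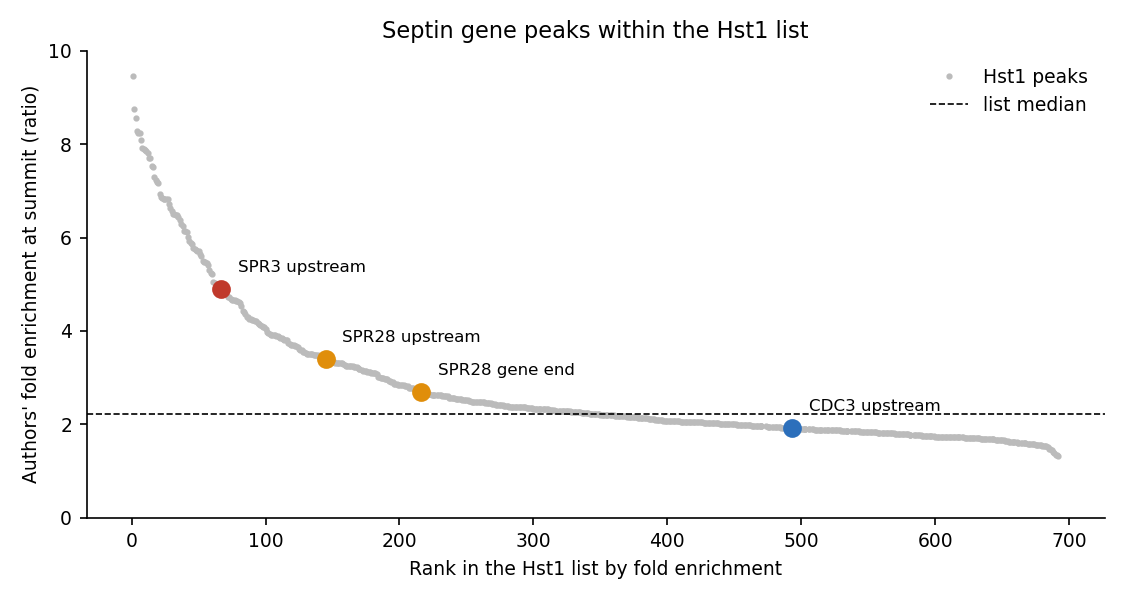
The authors' fold enrichment of each of the 692 Hst1 peaks is plotted against its rank, with the list median of 2.22 as a dashed line and the 4 peaks called at septin genes as coloured circles. The SPR3 peak (4.90) and both SPR28 peaks (3.41 and 2.70) lie above the median and the CDC3 peak (1.92) below it.

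The order of fold among the called septin peaks was therefore SPR3, the start of SPR28, the end of SPR28 and CDC3. The Hst1 list as a whole had a median fold of 2.22 and an interquartile range of 1.88 to 3.15. Both peaks at the starts of the sporulation septins were above that range, the peak at the end of SPR28 was in its upper part and the CDC3 peak close to its lower bound. With 1 list there is no spread by which neighbours in this order could be told apart.

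CDC10 (YCR002C, III, 117380 to 118348, reverse strand), another core rod subunit, had 0 Hst1 summits and 0 bp covered. The closest Hst1 peak (116058 to 116481, fold 1.89) had its summit 1030 bp past the end of the gene. Upstream, CDC10 shares 271 bp with MRPL32, a mitochondrial ribosomal protein gene that points away from it, and Hst1 had no summit there. The nearest Sir2 summit was 27.8 kb away.

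CDC11 (YJR076C, X, 575354 to 576601, reverse strand), which encodes a subunit at the rod ends, also had 0 bp covered, although one of the strongest Hst1 peaks was nearby. That peak (577986 to 579565, fold 8.23, rank 6) had its summit 2124 bp upstream of CDC11, beyond MIR1, the mitochondrial phosphate carrier gene. The summit lay 535 bp upstream of MIR1 and 135 bp upstream of BNA2, which encodes the first enzyme of NAD+ synthesis from tryptophan, and the peak covered the starts of both. The edge of the peak came to 1385 bp from the start of CDC11. The 653 bp between CDC11 and MIR1 held no summit. The nearest Sir2 summit was 94.2 kb away.

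CDC12 (YHR107C, VIII, 326813 to 328036, reverse strand), a core rod subunit, was the septin gene farthest from any Hst1 summit, with the nearest 28.3 kb away. The nearest Sir2 summit was 29.7 kb away. CDC12 shares 266 bp upstream with GGA2, a Golgi adaptor gene that points away from it. SHS1 (YDL225W, IV, 52445 to 54100, forward strand), which encodes a subunit that can take the place of Cdc11 at rod ends, had its nearest Hst1 summit at 8.15 kb and its nearest Sir2 summit at 51.7 kb. It shares 271 bp upstream with GCS1, a gene for an ARF GTPase-activating protein. Neither gene had a peak of any list in the stretch examined.

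The called septin genes had their Hst1 summits in the gap before the start, although SPR28 had one in its body as well. Over all genes Hst1 had a summit in the 1 kb upstream of 12.9% and in the body of 1.93%. The 787 pairs of an upstream summit and a gene had a median distance of 411 bp to the start, with an interquartile range of 282 to 600 bp. The SPR28 summit at 75 bp and the SPR3 summit at 202 bp were closer than that range, with 3.18% and 11.3% of pairs nearer, and the CDC3 summit at 369 bp was within it, with 40.4% nearer.

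**Figure D4:**
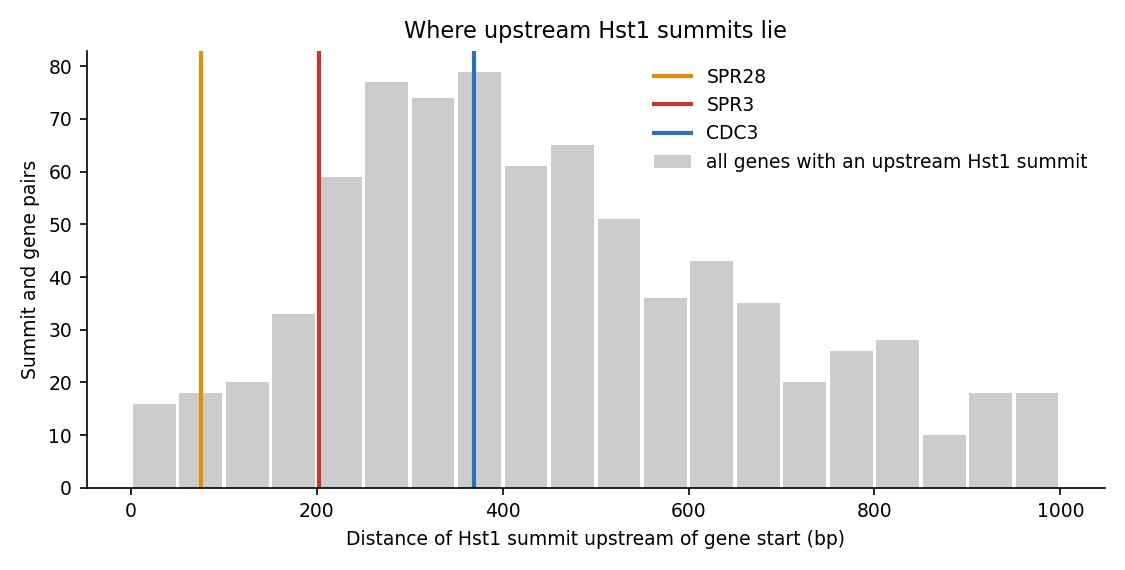
Grey bars count pairs of an Hst1 summit and a gene start by the distance in bp between them, over all genes with a summit in the 1 kb upstream, in 50 bp steps; coloured lines mark the septin genes. The lines for SPR28 (75 bp) and SPR3 (202 bp) lie to the left of most pairs and the CDC3 line (369 bp) lies in the bulk.

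The septin genes also differed among themselves in how their upstream stretches are arranged. Both sporulation septins follow a gene of the same direction, as CDC11 does, while CDC3, CDC10, CDC12 and SHS1 have a neighbour that points away. Either arrangement is common: over all genes, 2820 starts had a gap to a same-direction neighbour and 3000 a gap to one pointing away. Hst1 had a summit in the gap at 7.98% of the first and 13.3% of the second. For gaps of 266 to 670 bp, the range of the septin genes, these shares were 6.18% of 1635 starts and 6.23% of 1397. A gap between 2 protein-coding genes pointing apart is counted from each start. With both arrangements common over all genes, so few septin genes cannot show that the classes differ in arrangement. Whether arrangement bears on the calls at the septin genes was not tested. By total covered sequence, 1.62% of all genes had at least as many bp under Hst1 peaks as SPR3, 1.95% as many as SPR28 and 14.1% as many as CDC3. The SPR28 total includes 358 bp of the peak that also lies upstream of RAD9. The median of the 1011 genes with any was 394 bp.

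Other genes were compared with the called septin genes by the absolute difference in upstream fold within the Hst1 list. The pool was 722 genes with an Hst1 summit in the 1 kb upstream and no Sir2 or mock IP peak in the stretch examined. The 3 genes nearest in fold were taken for each called septin gene. For SPR3 these were BNA5 (fold 4.87), an NAD+ synthesis gene, ECM8 (4.96) and GPD2 (4.97), a glycerol-3-phosphate dehydrogenase gene. For SPR28 they were the oligopeptide transporter gene OPT2 (3.41), SPO77 (3.42), needed for prospore membrane closure, and CDA1 (3.42), a chitin deacetylase gene of the spore wall. For CDC3 they were CRP1 (1.92), its neighbour NKP2, which has the same peak, and YOP1 (1.92), a gene for a protein that shapes the endoplasmic reticulum.

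Of 3 genes whose products work with the sporulation septins, Hst1 called 2, both upstream, against the 14.4% of all genes. Sir2 and the mock IP called 0, against 1.83% and 0.0666% of all genes, so these counts of 0 do not set the list apart. The GIP1 peak (II, 329710 to 330748) had a fold of 4.37 and a summit 250 bp before the start. GIP1 encodes the targeting subunit that brings the phosphatase Glc7 to the septins in sporulation. The YSW1 peak (II, 537345 to 538044) had a fold of 4.72 and a summit 273 bp before the start, and YSW1 encodes a spore protein needed for normal prospore membranes. GLC7, which is also used in growing cells, had no call. The folds of GIP1 and YSW1 fell between those of SPR28 and SPR3.

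Of a mixed list of prospore membrane, meiotic spindle pole plaque and late sporulation genes, Hst1 called 9 of 12 (against 14.4% of all genes), 6 of them with a summit upstream and 3 with one in the body. The strongest were the kinase gene SMK1 (fold 8.57) and SPO74 (7.18), for a part of the meiotic spindle pole plaque. The leading edge gene SSP1 had a fold of 4.80, with its summit 11 bp past the start, and SPO77 had 3.42. SMA2 (2.33, summit in the body), SMA1 (2.29), MPC54 (2.18), SPO20 (1.91) and SPO21 (1.91, summit in the body) were weaker. The SMA2 summit lay 1083 bp past the start, and 301 bp of its peak were in the stretch examined. The SPO20 summit lay 693 bp upstream. Neighbouring genes were examined only for the septin genes, so calls in this and the other lists are not given to 1 gene alone. ADY3, DON1 and SPO14 had no call. Sir2 and the mock IP called 0 of the 12, against 1.83% and 0.0666% of all genes, so these counts of 0 do not set the list apart.

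Regulators and bud neck partners of the vegetative septins were called about as often as genes in general. Hst1 called 4 of 25, or 16.0%, against the 14.4% of all genes. Sir2 and the mock IP called 0, against 1.83% and 0.0666% of all genes, so these counts of 0 do not set the list apart. The called genes were SWE1 (X, 79285 to 79918, fold 3.39, summit 277 bp upstream), the kinase of the morphogenesis checkpoint, the bud site gene AXL2 (fold 2.08), the bud neck gene NIS1 (1.91) and the septin-associated kinase gene KCC4 (1.61). The last 3 were below the list median, as CDC3 was. Kinase genes of the septin collar such as GIN4, ELM1, HSL1 and CLA4 had no call.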

How the data were processed

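Peak lists of 3 IPs were used, and the genomic input was not. Per the submitters' processing notes, the authors used BWA and MACS2 with the build sacCer3. Not given in the sources used here are versions, cutoffs, the control library of each call and whether the 2 technical replicates of the design text were pooled. The deposited lists give per peak a fold (a ratio over the caller's local background), −log10 p and −log10 q, and a deposited score that restates the −log10 q.

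Positions are 1-based. The gene table was RefSeq's for assembly R64, the assembly behind sacCer3, with strand read from the W or C of the systematic name. Calls and covered bp were computed with Python 3.11.15 and pandas 2.3.3 over all 6002 genes. As a check of the counting, summits simulated inside the examined stretches were called at 200 of 200 planted genes. Both steps used the same definition of the stretch, so this does not measure how well real peaks are found. Named genes were the members, their neighbours, called members of 3 other lists and the 3 genes nearest in fold to each called member; some genes without a call were named in addition. Members and lists were chosen with earlier results of these data known. The planned search for promoter motifs was not run.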

Additional observations from a re-analysis of the deposited data

How the results depend on the processing

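SPR3 and SPR28 were called by Hst1 under all 10 alternatives, and CDC10, CDC11, CDC12 and SHS1 under 0 of the 10, although a peak reached into the 2000 bp upstream of CDC11. All 10 reuse the same Hst1 list, so these counts largely restate fold, −log10 q and distance and are not independent support. CDC3 was called under 5: it was lost, so that 0 vegetative septins were called, with 250 bp upstream, with a minimum −log10 q of 10, in the strongest 50% of the list, and in both settings chosen after seeing the data. These were a list cut to the 159 strongest peaks and each summit given to the nearest protein-coding start, which is that of NKP2. The vegetative septins then had 0 bp covered in the first 4 of these settings, and 833 bp with 2000 bp upstream. The sporulation septins had 836 bp with the body left out (573 at SPR3 and 263 at SPR28). SPR3 had 568 bp with 250 bp upstream, and SPR28 had 469 bp in the cut list, where 1 of its 2 summits was left. All genes called by Hst1 numbered 258 (4.3%) with 250 bp upstream, 543 with a minimum −log10 q of 10, 454 in the strongest 50% and 208 in the cut list. For Sir2 they numbered 68 with 250 bp upstream, 55 with the body left out, 178 with any part of a peak counted, 58 with a minimum −log10 q of 10 and 57 in the strongest 50%, and for the mock IP 7 with 2000 bp upstream and 2 with the body left out, against 4. Sir2 and the mock IP called 0 of the 7 septin genes in every setting. A count was taken as moved past 1.5 times. No paired analysis was possible because each IP had 1 list and the labels give no replicate numbers. The lists hold no depth, so what weaker peaks were missed is unknown.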
